A study of Arabidopsis thaliana with 6 samples.

Results

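Cytochrome P450 genes were followed in flower buds of Arabidopsis thaliana at 3 classes of anther development, in wild-type plants and in plants with a mutation of the cysteine protease gene CEP1. The set holds the 207 loci whose description in the deposited tables contains the words cytochrome P450, out of 25964 loci with a read in any library. The words were found at 212 loci; 5 of these were left out by the rule. The rule names 6 loci to leave out (CYP703A2, CYP704B1, CYP98A8, CYP98A9, CYP75B1 and the allene oxide synthase gene), and the tables describe the last of them without these words. P450 genes whose description lacks the words, such as CYP73A5 and CYP85A2, are not members either. The label fits the members: 199 carry a CYP name, spread over 39 families and 61 subfamilies, and 8 are known by locus only. The reference annotation lists 199 of them as protein coding and 8 as transcribed pseudogenes.

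All plants were of the Columbia background, grown on soil at 23 degrees with 14 h of light and 10 h of dark, and whole buds were collected. Wild-type (WT) and atcep1 buds were each taken at anther stages 5 to 6 (called A), at 7 to 9 (B) and at 10 to 11 (C); no treatment is named. There was 1 library per genotype and stage, 6 in all, and nothing says that libraries came from separate plants, so p-values measure only the spread between these samples. The labels name the mutant as atcep1 and give no allele. Between 4013645 and 4375266 reads per library, deposited as unique, fell in the loci tested below, which is 99.2% to 99.4% of a library. The targeted gene CEP1 had 0, 1 and 6 reads in the WT libraries, in the order of stages used throughout, and the mutant had 4, 5 and 6, so its level does not tell the genotypes apart. Because whole buds were used, fewer cells of a type and less RNA per cell cannot be told apart in any value below.

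P450 enzymes are haem-thiolate monooxygenases. They activate molecular oxygen at an iron held by a cysteine and insert an oxygen atom into small lipophilic molecules, drawing electrons from a membrane-bound reductase. Plants use them to build and to inactivate hormones, to make sterols, carotenoids, lignin precursors, glucosinolates and terpenoids, and to hydroxylate the fatty acids of cutin, suberin and the pollen wall.

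The part of the coding sequence that carries the haem-binding cysteine is a conserved stretch of the family. A search of the translated reference coding sequences for F-x-x-G-x-R-x-C-x-G, where x is any residue, found this loop in 163 of the 199 coding members and in 79 of the 102 coding members that were tested for expression. The cysteine codon was TGT in 117 of them and TGC in 46. The 30 coding bases of the loop are printed for the genes on which the results turn, 5′ to 3′ on the coding strand, from the TAIR10.1 reference genome, with the cysteine codon in capitals.
CYP86A4, chr1:220689-220718, plus strand: ttcaatgctggaccaaggatcTGCttgggg
CYP86A7, chr1:23632561-23632590, minus strand: ttcaatgccggtccacggattTGTctaggc
CYP86C2, chr3:9553228-9553257, plus strand: ttcaatgcaggtccaagacttTGTttaggg
CYP77A6, chr3:3303503-3303532, plus strand: ttcggtattggccgtcggatcTGTccgggg
CYP77A4, chr5:1337393-1337422, plus strand: tttggtgtgggccgtaggatcTGTccagga
CYP76C1, chr2:18776574-18776603, minus strand: ttcggagccggacgtagaattTGCccggga
CYP76C2, chr2:18780115-18780144, minus strand: ttcggagccggacgtagaataTGCccggga
CYP76C3, chr2:18782577-18782606, minus strand: tttggatcaggaagaaggatgTGTccggga
CYP71B31, chr3:19762037-19762066, plus strand: tttggagccggtcgtaggaacTGTccaggt
CYP94B3, chr3:17975278-17975307, minus strand: tttcaagccgggccgagggttTGTgtaggg
CYP76C1 and CYP76C2 share 29 of the 30 loop bases and 82.3% of their aligned coding sequence, while CYP76C3, next to them, shares 22 loop bases with each and 66.9% or 67.3% of the coding sequence. CYP77A4 and CYP77A6 share 24 loop bases and 80.4% of the coding sequence. CYP86A4 and CYP86A7 share 22 loop bases and 67.9%. The loop does not rank relatedness: CYP77A4 and CYP77A7 share 27 loop bases but 74.9% of the coding sequence.

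Many members lie side by side. Counting members with at most 1 other locus between them, 104 of the 207 stand in 32 tandem runs, 14 of which hold 3 or more. Runs were set by position alone, so some join different families, such as CYP96A1 and CYP81D7. The longest run has 10 CYP705A genes on chromosome 3. Neighbours could share reads, so every stretch of 49 bases of each gene was searched for elsewhere in the genome. In 129 members no stretch recurred, and in 9 members over 20% of stretches did. Of those 9, 5 were tested for expression. They were CYP76C8P with 100%, CYP706A1 with 46.8%, CYP89A5 with 31.8%, CYP71B19 with 22.0% and CYP71B20 with 20.4%, and their values are uncertain. CYP76C8P still had 2 to 40 reads per library, and how these came to be counted as unique was not tested. Of the members, 136 have 1 RefSeq transcript and 63 have more. Reads that match several transcript models may be missing from unique counts: CYP90A1, which carries out an oxidation step of brassinosteroid synthesis and has 3 RefSeq transcripts, had 1 read in all 6 libraries. Whether this cause lowers it was not tested.

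Levels are given as RPKM, the deposited reads scaled to transcript length and to library total, so that genes can be compared per length. The mean over 6 libraries was below 1 RPKM for 95 members, between 1 and 10 for 59 and at 10 or more for 53. The median member stood at 1.45 RPKM, against 4.85 for all loci. A read was found in every library for 129 members, and 23 members had reads in 1 library only. The filter on low counts kept 104 members for testing. The other 103 had a median of 8 reads over all libraries and at most 96.

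The 10 most abundant members of each library held 39.9% to 45.6% of the members' summed RPKM there. By the mean over libraries, the order was as follows. CYP51G1, the sterol demethylase needed for all membrane sterols, was first at 132, 121 and 114 RPKM in WT and at 160, 150 and 147 RPKM in atcep1. CYP706A3, a floral enzyme that oxidises sesquiterpenes, came next with 144, 151 and 168 RPKM in WT and 104, 104 and 133 RPKM in atcep1. The means of these 2 genes, 137 and 134 RPKM, differ by less than their spread over libraries. After them came CYP71B26 (72.2 RPKM), the glucosinolate gene CYP83A1 (70.5 RPKM), the petal cutin gene CYP77A6 (70.0 RPKM), CYP705A19 (68.1 RPKM) and a further glucosinolate gene, CYP83B1 (64.9 RPKM). These 5 means lie within the spread of each gene over its libraries. CYP89A9, which oxidises chlorophyll breakdown products (60.0 RPKM), CYP708A3 (51.2 RPKM) and CYP72A11 (50.7 RPKM) close the top 10, and their ranges over libraries also overlap.

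All members together took 0.276%, 0.296% and 0.330% of the reads of the WT libraries and 0.376%, 0.392% and 0.489% of those of atcep1. Their summed level was 1502, 1613 and 1806 RPKM in WT and 2061, 2152 and 2691 RPKM in atcep1. Each atcep1 library lay above every WT library in this sum, and within each genotype the sum was lowest at A and highest at C.

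The first comparison asks which P450 genes differed between atcep1 and WT buds over the 3 stages. In atcep1, 40 of the 104 tested members rose (38.5%), where 16.0% of all 16114 tested loci rose, and 4 fell (3.85%), where 11.5% of all loci fell. The largest rises were those of a linalool hydroxylase (CYP76C3), of the enzyme that inactivates the jasmonate hormone (CYP94B3) and of fatty acid hydroxylases (CYP86C2, CYP86A7). Of the 40 that rose, 24 did so at least 2-fold and 9 at least 4-fold, and 39 had the same direction at all 3 stages. The 4 that fell were CYP77A4, CYP734A1, CYP705A18 and CYP706A3, none by as much as 2-fold. The median log2 fold change was 0.40 over the tested members and -0.00 over all tested loci, and 74.0% of members against 49.7% of loci lay above 0.

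Calls rest on edgeR's quasi-likelihood test with stage as a term and on a Benjamini-Hochberg adjusted p below 0.05 over all tested loci, with 2 residual degrees of freedom. All log2 fold changes below come from this fit and carry its standard error (SE). The error of a gene combines how far its genotype difference varied over the 3 stages with a spread that edgeR estimates from all tested loci. A gene that differs mostly at 1 stage can therefore still be called, as CYP76C1 was. All 3 atcep1 values lay above all 3 WT values in 31 tested members (29.8%, against 13.6% of all tested loci), 27 of them among the 40 that rose. All 3 lay below in 8 members (7.69%, against 18.7% of loci), 3 of them among the 4 that fell. In 54 members atcep1 was above WT at all 3 stages (51.9%, against 26.1%) and in 14 below at all 3 (13.5%, against 33.9%). In 3 of the genes that rose, CYP76C2, CYP94B3 and CYP89A3, every WT library had fewer than 10 reads.

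**Figure D1:**
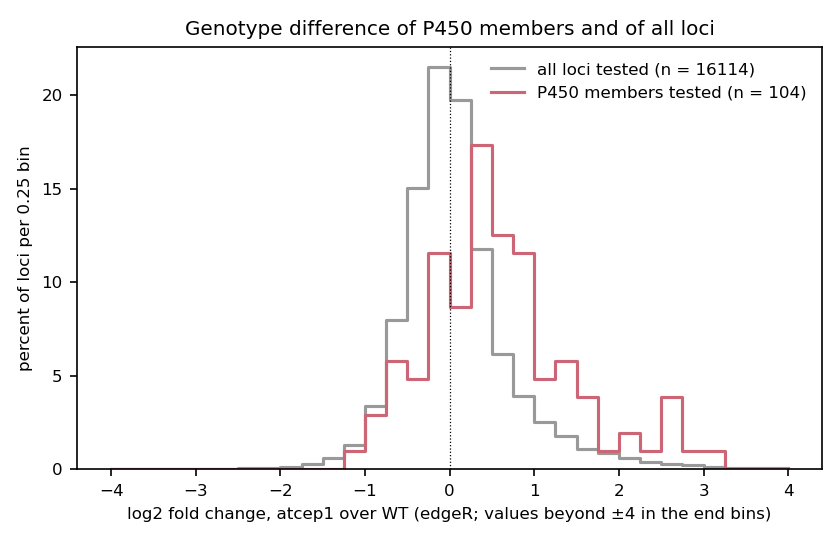
Percent of loci per bin of 0.25 (vertical axis) by log2 fold change of atcep1 over WT (horizontal axis), for the 104 tested P450 members and all 16114 tested loci. The members' line lies to the right of the line of all loci, with medians of 0.40 and -0.00.

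The heat map of called members gives the level of each of the 44 in every library.

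**Figure D2:**
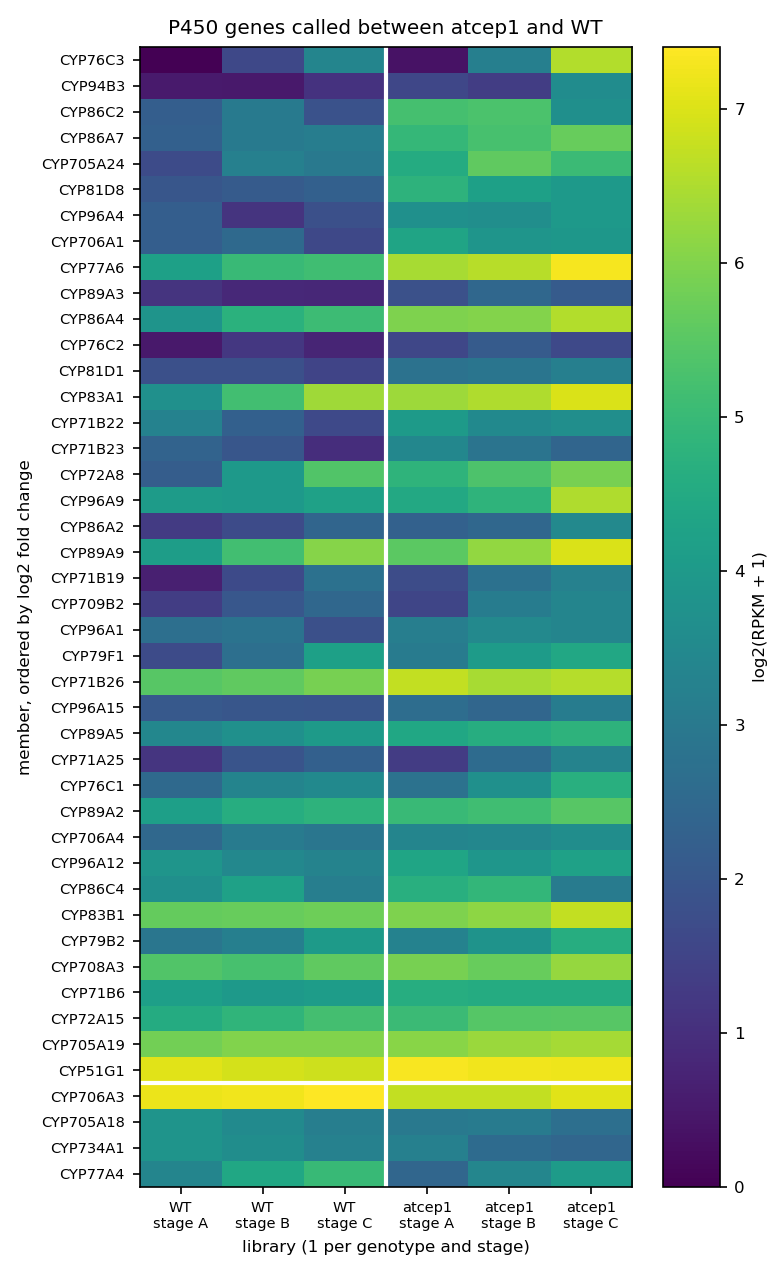
Level as log2(RPKM + 1) (colour) in each of the 6 libraries (columns) for the 44 P450 members called between genotypes (rows, ordered by log2 fold change; the horizontal line parts the 40 that rose from the 4 that fell). CYP76C3, CYP94B3, CYP86C2 and CYP86A7 head the rows, and CYP51G1 and CYP706A3 are bright in every library.

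Markers of cell types moved with genotype too. All 9 tapetum markers (such as A9 and MS2) were called higher in atcep1, with a summed level of 79.7 to 645 RPKM over WT libraries and 307 to 2012 over atcep1. All 6 pollen markers were called higher, at 15.5 to 782 RPKM in WT and 113 to 1658 in atcep1, and all 4 markers of lignified and vascular cells, at 9.38 to 32.8 and 40.1 to 86.1 RPKM. No marker was at 0 in all libraries. ATA1 of the tapetum list had 0 reads in WT stage C, and AGL66 of the pollen list in WT stage A. MMD1 of the meiocyte list had 0 reads at stages B and C in both genotypes. Of 5 meiocyte markers 3 were tested and 2 called lower, and of 6 carpel and ovule markers 5 were tested and 1 called lower. All 4 green tissue markers were tested and 1 was called lower. Among all tested loci 16.0% were called higher and 11.5% lower. The part of these differences in the P450 results was not tested.

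Enzymes that hydroxylate fatty acids and waxes gave 8 of the calls on role lists, the most by number on the list with the most tested members. They put hydroxyl groups on fatty acids that become cutin and suberin, the polyesters that cover and seal plant surfaces. Beside each role list stand shares of 38.5% called higher and 3.85% lower for all tested members, and of 16.0% and 11.5% for all tested loci. No list was tested as a set. Of 14 members on the fatty acid and wax list 13 were tested, 7 rose and 1 fell in atcep1, with a median log2 fold change of 0.67. Their summed level was 101, 159 and 179 RPKM in WT and 304, 331 and 401 RPKM in atcep1, so the lowest atcep1 sum lay above the highest WT sum.

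CYP86A4, which hydroxylates the end of the chain in petal cutin, stood at 13.3, 25.3 and 32.7 RPKM in WT and at 62.0, 63.6 and 93.4 RPKM in atcep1. CYP77A6, which acts after it in the middle of the chain, stood at 17.5, 31.2 and 33.7 RPKM in WT and at 84.6, 95.8 and 157 RPKM in atcep1. For both genes every atcep1 library lay above every WT library, and the level went up from A to C in each genotype. The log2 fold changes were 1.72 ± 0.16 (SE, adjusted p = 0.0002) for CYP86A4 and 2.09 ± 0.14 (adjusted p = 6.5e-05) for CYP77A6.

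CYP86A7, of the same subfamily of fatty acid hydroxylases as CYP86A4, had 27, 53 and 58 reads in WT and 216, 269 and 391 reads in atcep1 (3.79, 7.32 and 7.74 against 29.6, 36.6 and 50.2 RPKM). Its log2 fold change was 2.69 ± 0.15 (SE, adjusted p = 3.3e-05). CYP86A2, an enzyme of cutin synthesis, rose by 1.30 ± 0.23 (adjusted p = 0.00432) from a lower level, with 1.42, 2.22 and 4.28 RPKM in WT and 3.93, 4.60 and 10.2 RPKM in atcep1. The groups do not overlap for CYP86A7, while the WT stage C value of CYP86A2 lies within the atcep1 range. CYP86A8 (LACERATA), an epidermal hydroxylase of the same subfamily, did not pass the test: it stood at 25.4, 34.8 and 41.8 RPKM in WT and at 39.7, 39.3 and 38.9 RPKM in atcep1 (0.29 ± 0.13, adjusted p = 0.137).

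In the CYP86C subfamily of fatty acid hydroxylases the members differed in their values. CYP86C2 stood at 3.66, 7.35 and 2.61 RPKM in WT and at 36.4, 38.3 and 12 RPKM in atcep1, a log2 fold change of 2.69 ± 0.21 (SE, adjusted p = 0.000111). Even its lowest atcep1 value, at stage C, exceeded every WT value. CYP86C4 rose by 0.67 ± 0.19 (adjusted p = 0.0312), with the gap at A and B: it went from 12 and 17.7 RPKM in WT to 24.7 and 29 RPKM, and at C the values were 8.01 and 7.46 RPKM. CYP86C1 and CYP86C3 did not pass the test (-1.08 ± 0.42, adjusted p = 0.0902, and -0.08 ± 0.29, adjusted p = 0.863). CYP86C1 is a late gene, with 0, 1.46 and 10.8 RPKM in WT and 0.289, 0.431 and 4.61 RPKM in atcep1.

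CYP96A15, the alkane hydroxylase that makes the secondary alcohols and ketones of stem wax, rose by 0.99 ± 0.27 (SE, adjusted p = 0.026), from 2.86 to 3.15 RPKM over WT libraries to 4.45 to 7.60 over atcep1. CYP77A4, which puts epoxide groups on unsaturated fatty acids, went the other way. It stood at 9.31, 20.2 and 30.8 RPKM in WT and at 4.47, 9.60 and 15.7 RPKM in atcep1, a log2 fold change of -0.96 ± 0.14 (adjusted p = 0.00199). Within each stage WT was above atcep1, though the groups overlap because both went up from A to C. CYP77A4 and its close relative CYP77A6, whose loops are printed above, thus had opposite calls between genotypes.

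**Figure D3:**
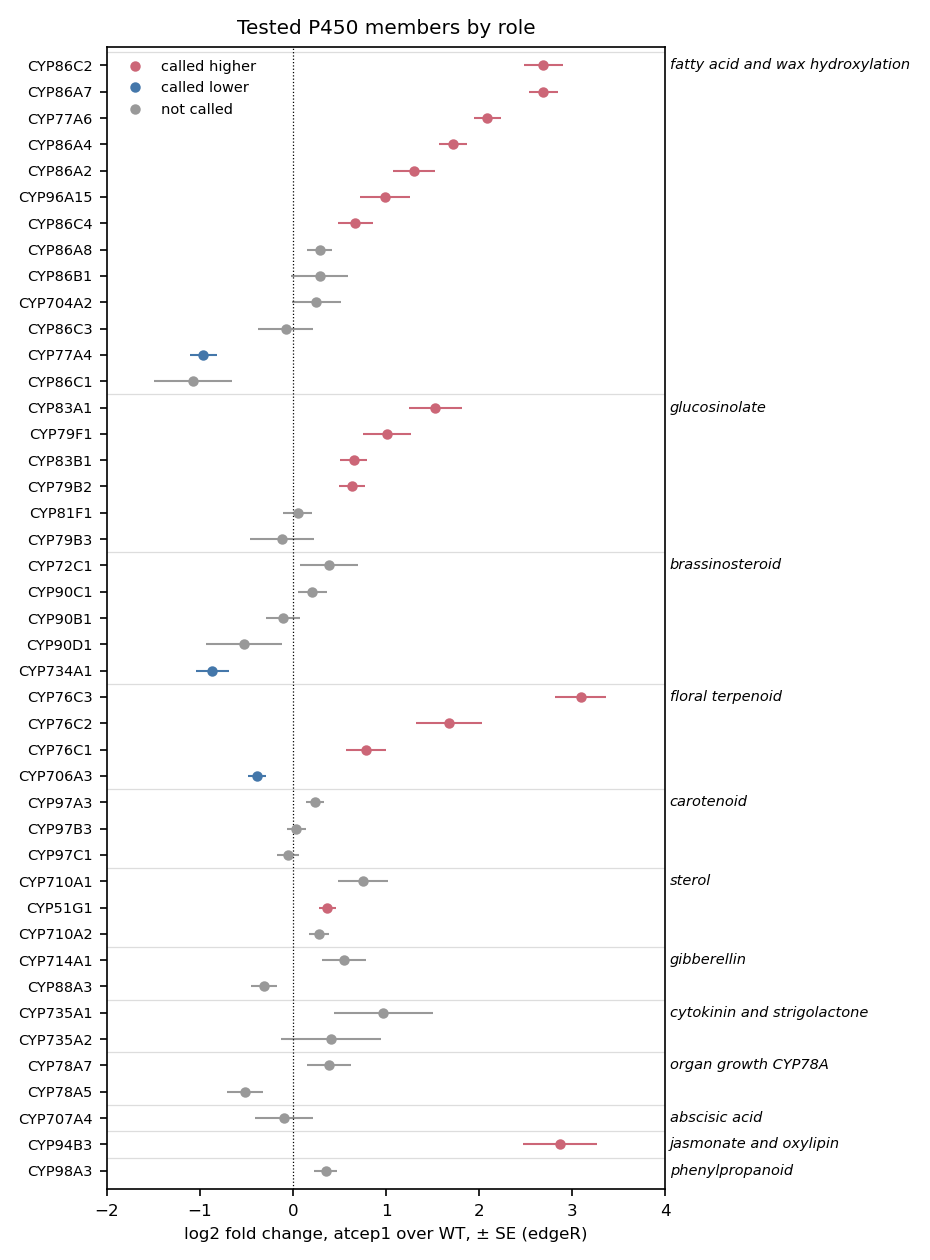
Log2 fold change of atcep1 over WT with its SE from edgeR (horizontal axis) for each tested member on a role list (rows, grouped by role); red points were called higher, blue lower and grey not called. Called higher were 7 of 13 fatty acid and wax hydroxylases, 4 of 6 glucosinolate genes and 3 of 4 floral terpenoid genes, and none of the 3 carotenoid genes was called. Over all tested members 38.5% were called higher, and over all tested loci 16.0%.

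The floral terpenoid list holds P450 genes whose enzymes oxidise linalool and sesquiterpenes, scents of the open flower. Of 6 members on the list 4 were tested, with 3 called higher and 1 lower. CYP76C3, a linalool hydroxylase of flowers, had 0, 14 and 66 reads in WT and 2, 57 and 679 reads in atcep1, which is 0, 2.04 and 9.29 against 0.289, 8.19 and 92.0 RPKM. It was the member with the largest log2 fold change, 3.09 ± 0.28 (SE, adjusted p = 0.000189). Stage C of atcep1 stands far above all other libraries, and without stage C the log2 fold change was 2.06 (adjusted p = 0.00388).

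CYP71B31, which acts on linalool in the same flowers, had 0, 0 and 1 reads in WT and 2, 2 and 91 reads in atcep1, and was not tested because of its low counts. Its stage C level was 12.4 RPKM in atcep1 and 0.141 RPKM in WT. CYP76C2 and CYP76C1, neighbours of CYP76C3 that also oxidise monoterpenols, were called higher. CYP76C2 rose by 1.68 ± 0.35 (SE, adjusted p = 0.00994), with 3, 9 and 5 reads in WT against 14, 24 and 16 in atcep1; the call was lost without stage A (adjusted p = 0.0508) and with DESeq2 (0.0877). CYP76C1 stood at 4.75, 9.11 and 10.4 RPKM in WT and at 5.94, 12.2 and 24.4 RPKM in atcep1 (0.79 ± 0.21, adjusted p = 0.0267). Its difference sits mostly at stage C, and without that stage it was 0.39 (adjusted p = 0.186). The call was also lost with DESeq2 (adjusted p = 0.0971) and with limma on log2(RPKM + 1) and log2(RPKM + 0.1) (0.0831 and 0.0864).

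The sesquiterpene oxidase CYP706A3 fell by 0.39 ± 0.10 (SE, adjusted p = 0.0191), and all 3 of its WT values, given above, exceed the 3 atcep1 values. This small difference lost its call when stage A (adjusted p = 0.138) or stage B (0.125) was left out, and with DESeq2 (0.0686).

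The jasmonate group had 1 tested member of 4. CYP94B3 hydroxylates the active hormone jasmonoyl-isoleucine and so starts its breakdown. It had 3, 3 and 8 reads in WT and 14, 11 and 84 reads in atcep1, or 0.439, 0.432 and 1.11 against 2.0, 1.56 and 11.2 RPKM. Every atcep1 library was above every WT library, and the log2 fold change was 2.87 ± 0.40 (SE, adjusted p = 0.00145). Without stage C, where the gap in reads was widest, it was 2.0 (adjusted p = 0.013).

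Glucosinolates are the sulfur-rich defence compounds of the cabbage family, and their core is made from amino acids by CYP79 and then CYP83 enzymes. Of 10 members on this list 6 were tested and 4 rose, with none lower and a median log2 fold change of 0.64. Their summed level was 90.0, 118 and 189 RPKM in WT and 172, 208 and 305 RPKM in atcep1. In the methionine branch, CYP79F1 makes the aldoxime and CYP83A1 oxidises it. CYP83A1 stood at 12.1, 34.9 and 79.6 RPKM in WT and at 78.9, 91.1 and 126 RPKM in atcep1, so the youngest atcep1 buds were close to the oldest WT buds. It rose by 1.53 ± 0.28 (SE, adjusted p = 0.00589), with the widest gap at stage A.

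CYP79F1 stood at 2.25, 5.54 and 17.4 RPKM in WT and at 7.37, 15.5 and 20.5 RPKM in atcep1, with a log2 fold change of 1.01 ± 0.26 (SE, adjusted p = 0.0207). Its gap was narrow at stage C: without that stage the log2 fold change was 1.57 (adjusted p = 0.000327), and without stage A the call was lost (adjusted p = 0.0727). In the tryptophan branch, CYP79B2 makes the aldoxime and CYP83B1 passes it on to indole glucosinolates. CYP83B1 stood at 48.8, 50.6 and 53.4 RPKM in WT and at 61.7, 69.4 and 105 RPKM in atcep1, with no overlap (0.65 ± 0.14, adjusted p = 0.0109; 0.41 without stage C, adjusted p = 0.00631). CYP79B2 stood at 6.49, 8.11 and 15.5 RPKM in WT and at 8.77, 12.8 and 23.4 RPKM in atcep1 (0.63 ± 0.14, adjusted p = 0.0126). That call was lost without stage C (adjusted p = 0.0505) and with DESeq2 (0.0845). CYP79B3, which has the same activity as CYP79B2, did not pass (-0.12 ± 0.35, adjusted p = 0.821), and neither did CYP81F1, which modifies the indole ring (0.05 ± 0.16, adjusted p = 0.838).

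Few hormone P450s were tested: 5 brassinosteroid, 2 gibberellin, 1 abscisic acid and 2 cytokinin and strigolactone members. Of these 1 was called, and the jasmonate gene CYP94B3, described above, was called too. In either direction 42.3% of all tested members and 27.5% of all tested loci were called. Of 6 brassinosteroid members 5 were tested, none rose and 1 fell, with a median log2 fold change of -0.11. The gene that fell was CYP734A1 (BAS1), which inactivates brassinosteroids by hydroxylation. It stood at 13.3, 11.4 and 8.60 RPKM in WT and at 8.35, 5.00 and 4.49 RPKM in atcep1, so that all 3 WT values lay above the 3 atcep1 values, and its log2 fold change was -0.87 ± 0.18 (SE, adjusted p = 0.00941). The synthesis genes CYP90B1 (DWARF4) and CYP90C1 (ROTUNDIFOLIA3) did not pass the test: the former was -0.11 ± 0.18 (adjusted p = 0.683) and the latter 0.21 ± 0.16 (adjusted p = 0.348).

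CYP88A3, an oxidase of gibberellin synthesis, stood at 16.7, 15.7 and 14.6 RPKM in WT and at 14.8, 10.8 and 11.1 RPKM in atcep1 (-0.31 ± 0.14, adjusted p = 0.12), and of 2 tested gibberellin members neither passed. CYP707A4, which breaks down abscisic acid, did not pass (-0.10 ± 0.31, adjusted p = 0.836), with 3.09, 12.4 and 11.0 RPKM in WT and 6.17, 6.56 and 9.82 RPKM in atcep1. CYP735A2, which makes trans-zeatin cytokinins, had 1 to 17 reads per library (0.41 ± 0.54, adjusted p = 0.599), and CYP735A1, with the same activity, did not pass either. CYP78A5 (KLUH), which drives organ growth by a mobile signal, stood at 80.8, 28.2 and 5.80 RPKM in WT and at 38.8, 24.1 and 5.71 RPKM in atcep1. Its gap lay at stage A, and over 3 stages it did not pass (-0.52 ± 0.20, adjusted p = 0.0826).

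Sterol, carotenoid and phenylpropanoid members gave 1 call, of 3, 3 and 1 tested. CYP51G1 rose by 0.37 ± 0.09 (SE, adjusted p = 0.019), with every atcep1 library above every WT library; the call was lost when stage A (adjusted p = 0.0982) or stage B (0.0717) was left out. The sterol desaturase genes did not pass: CYP710A1 was at 0.75 ± 0.27 (adjusted p = 0.0668) and CYP710A2 at 0.28 ± 0.11 (adjusted p = 0.0883). None of the 3 carotenoid hydroxylase genes of the xanthophyll pathway passed: CYP97A3 was at 0.24 ± 0.10 (adjusted p = 0.109), CYP97B3 at 0.04 ± 0.10 and CYP97C1 at -0.05 ± 0.12. CYP98A3, a hydroxylase of lignin precursors, stood at 35.3, 28.5 and 20.6 RPKM in WT and at 36.3, 36.8 and 29.2 RPKM in atcep1 (0.35 ± 0.13, adjusted p = 0.0699). The 4 camalexin and indolic defence members and the 2 triterpene members had too few reads to be tested. The highest of them were CYP71B15 (PAD3), which makes camalexin, with 1 to 14 reads per library, and CYP71A16 of marneral metabolism, with at most 1 read.

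Of the 44 calls, 25 were of genes on no role list. The largest was CYP705A24, at 2.21, 8.41 and 6.92 RPKM in WT and 22.5, 47.6 and 32.1 RPKM in atcep1 (2.63 ± 0.19, SE, adjusted p = 7.3e-05). CYP81D8, a gene known to respond to oxidative stress and hypoxia, stood at 2.98, 3.37 and 3.82 RPKM in WT and at 26.6, 17.3 and 14.9 RPKM in atcep1 (2.54 ± 0.23, adjusted p = 0.000198). CYP96A4 stood at 3.63, 1.14 and 2.48 RPKM in WT and at 12.1, 11.6 and 15.2 RPKM in atcep1 (2.49 ± 0.29, adjusted p = 0.000636). In these 3 genes every atcep1 library exceeded every WT library by a wide margin, at all stages.

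The values of CYP706A1, 3.61, 4.80 and 2.02 RPKM in WT and 18.8, 13.4 and 14.1 RPKM in atcep1 (2.21 ± 0.25, SE, adjusted p = 0.000525), are uncertain, since its copy CYP706A2 shares 92.1% of the aligned coding sequence. CYP89A3 had 7, 5 and 5 reads in WT against 16, 28 and 22 in atcep1 (1.94 ± 0.37, adjusted p = 0.00658). Higher up in level, CYP71B26 went from 43.4, 47.2 and 57.9 RPKM in WT to 105, 86.2 and 93.8 RPKM in atcep1 (1.00 ± 0.12, adjusted p = 0.000652). CYP89A9 stood at 16.2, 34.5 and 66.0 RPKM in WT and at 45.3, 71.9 and 126 RPKM in atcep1 (1.18 ± 0.11, adjusted p = 0.000289), and it was above WT at every stage although the groups overlap. CYP708A3, a relative of the thalianol hydroxylase, rose by 0.58 ± 0.10 (adjusted p = 0.00422). CYP705A19 rose by 0.37 ± 0.09 (adjusted p = 0.0194) and its neighbour in the same tandem run, CYP705A18, fell by 0.61 ± 0.19 (adjusted p = 0.0424). Both CYP705A calls were lost when stage A (adjusted p = 0.0855 and 0.24) or stage B (0.0607 and 0.0971) was left out, and with DESeq2 (0.0886 and 0.249). The fall of CYP705A18 was also lost with limma on log2(RPKM + 0.1) (adjusted p = 0.0511).

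Among families with 5 or more tested members, CYP96 had 5 of 6 called higher (median log2 fold change 1.02), CYP76 3 of 5 (0.79), CYP86 5 of 9 (0.67), CYP71 6 of 18 (0.57) and CYP81 2 of 9 (0.32). CYP72 had 2 of 7 called higher and CYP705 had 2 of 6 higher and 1 lower, with medians of -0.04 and -0.06. Beside these counts, 38.5% of all tested members and 16.0% of all tested loci were called higher, and 3.85% and 11.5% lower. Whether a family differs from these shares was not tested. In CYP96, a family of alkane and fatty acid hydroxylases, CYP96A9 reached 90.2 RPKM in atcep1 stage C, against 15.1 to 27.2 RPKM in its other libraries. The CYP89 family, noticed after its values were seen, had all 4 tested members called higher, of which CYP89A5 is uncertain. Also uncertain, for the shared stretches given above, are CYP76C8P of the CYP76 family and CYP71B19 and CYP71B20 of the CYP71 family. The summed level of the CYP76 family was 6.89, 17.1 and 25.8 RPKM in WT and 10.2, 26.8 and 123 RPKM in atcep1, of which CYP76C3 gave 92.0 RPKM in the last library.

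**Figure D4:**
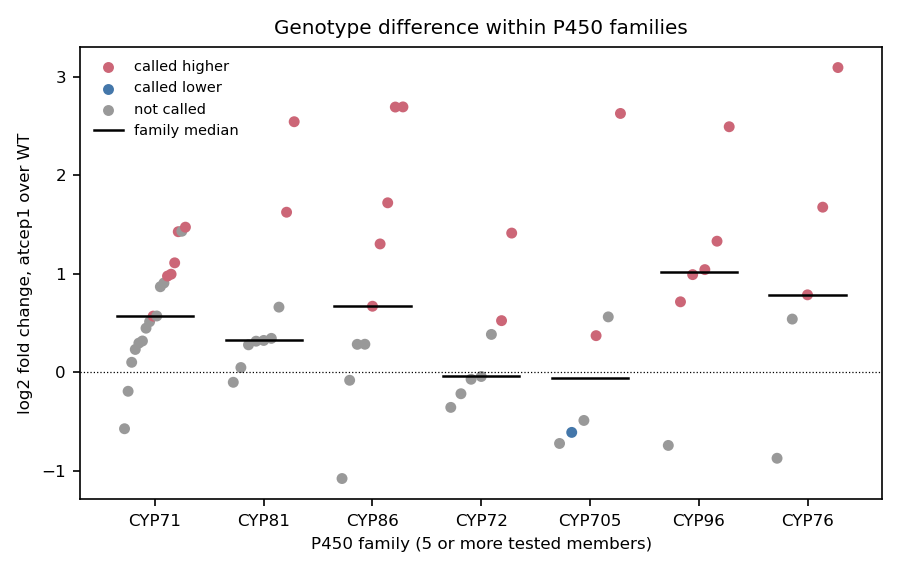
Log2 fold change of atcep1 over WT (vertical axis) for each tested member of the 7 families with 5 or more tested members; red points were called higher, blue lower, grey not called, and the black line is the family median. The CYP96 and CYP86 members lie mostly above 0, with medians of 1.02 and 0.67, and the CYP705 members lie on both sides.

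Tandem neighbours did not always move together. All 3 genes of the CYP76C run on chromosome 2 were called higher, with log2 fold changes from 0.79 to 3.09. In the run of 8 CYP72A genes on chromosome 3, 6 were tested and 2 called higher, CYP72A8 and CYP72A15, with a range of -0.35 to 1.41. The 10-gene CYP705A run held 4 tested genes, 1 called in each direction. The members with 1 RefSeq transcript gave 29 calls higher and 3 lower of 70 tested, and those with more gave 11 higher and 1 lower of 32. For comparison, 38.5% of all tested members and 16.0% of all tested loci were called higher, and 3.85% and 11.5% lower.

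The second comparison sets the genotypes side by side within each stage. It rests on 1 library against 1 and has no replicate check, so no p-value is given and the size alone is described, as log2((atcep1 RPKM + 1)/(WT RPKM + 1)) for genes with at least 5 RPKM in 1 of the libraries. Adding 1 shrinks the ratio of genes with low levels. A gene could enter through the library in which it was high alone, among members and all loci alike. At stage A 56 members reached 5 RPKM in WT and 69 in atcep1, at B 62 and 70, and at C 63 and 74. How far this entry rule shapes the shares below was not tested. At stage A 14 of 71 members were at least 2-fold higher in atcep1 (19.7%, against 6.23% of all such loci) and 1 was lower (1.41%, against 3.25%). At stage B 18 of 72 were higher (25.0%, against 6.64%) and 2 lower (2.78%, against 4.0%). At stage C 20 of 78 were higher (25.6%, against 8.15%) and 2 lower (2.56%, against 3.89%). At all 3 stages 8 of 66 members were at least 2-fold higher (12.1%, against 2.62%) and 0 were lower (against 0.73%).

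The largest ratios changed with stage. The ratios of reads per library total below carry an exact conditional 95% binomial interval, which covers counting error alone and takes no account of PCR copies. At stage A, CYP705A24 was 10.2 times higher in atcep1 (interval 5.88 to 19.1), CYP86C2 9.97 times (6.54 to 15.9), CYP81D8 8.93 times (5.62 to 15.0), CYP86A7 7.81 times (5.22 to 12.1) and CYP72A8 7.77 times (5.16 to 12.2). CYP72A8 stood at 3.51, 14.9 and 40.9 RPKM in WT and at 27.2, 39.2 and 58.5 RPKM in atcep1, so that its gap was widest in the youngest buds; over all stages it rose by 1.41 ± 0.32 (SE, adjusted p = 0.0125). At stage B, CYP96A4 had the largest ratio, 10.1 (4.89 to 24.2), followed by 4 of the genes of stage A: CYP705A24, CYP86C2, CYP81D8 and CYP86A7, at 5.66, 5.21, 5.14 and 5.00 times.

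At stage C the order was another one. CYP71B31 had 91 reads against 1, a ratio of 87.6 with an interval from 15.3 to 3498. CYP94B3 was 10.1 times higher (4.90 to 24.2), CYP76C3 9.90 times (7.69 to 13.0), CYP706A1 6.98 times (4.36 to 11.8) and CYP86A7 6.49 times (4.92 to 8.71). CYP86A7 was the 1 gene among the 5 largest at every stage. Differences between stages in these ratios were not tested, because with 1 library per genotype and stage no degrees of freedom remain for it.

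Lower ratios in atcep1 were fewer and smaller. At stage A the lowest were those of CYP78A5, 0.480 (0.416 to 0.553), and CYP77A4, also 0.480 (0.302 to 0.750), which cannot be ranked. CYP734A1 had the smallest value at stage B, 0.439 (0.296 to 0.641), and CYP705A27 at stage C, 0.292 (0.159 to 0.510), though both intervals overlap that of the next gene. CYP77A4 was among the 5 lowest at each stage, with ratios of 0.480, 0.475 and 0.510, and so was CYP734A1, with 0.626, 0.439 and 0.522. The glucosinolate gene CYP79B3 (0.591) and CYP707A4 (0.527) were among the lowest at stage B. CYP86C1 (0.425) and CYP96A2 (0.569) joined at stage C.

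**Figure D5:**
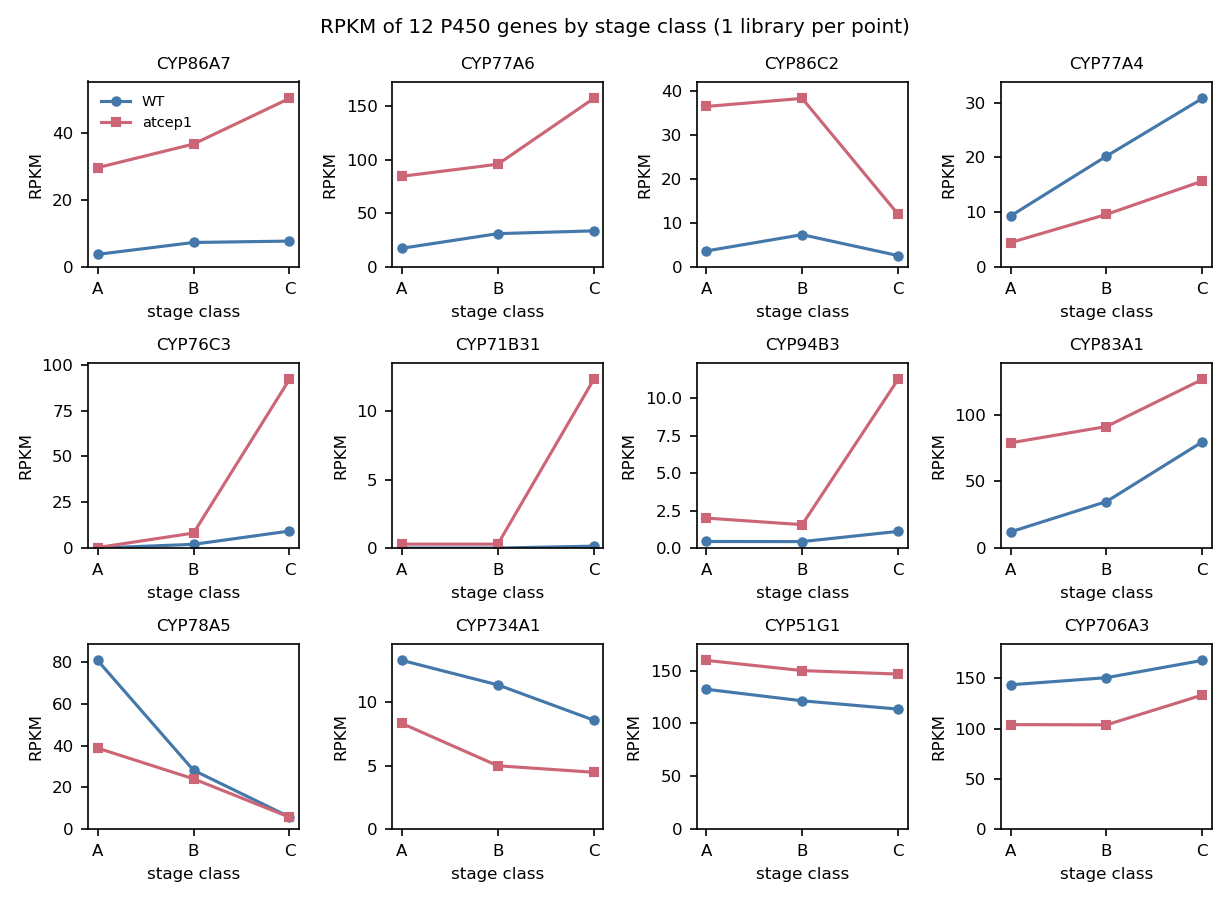
RPKM (vertical axis, each from 0) at stage classes A, B and C (horizontal axis) in WT (circles) and atcep1 (squares) for 12 members, with 1 library per point. CYP86A7 and CYP77A6 lie apart at every stage, CYP76C3, CYP71B31 and CYP94B3 part at C, CYP78A5 parts at A, and CYP77A4, CYP734A1 and CYP706A3 are lower in atcep1.

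The third comparison follows the members through development, with both genotypes in 1 fit and genotype as a term, so each stage has 2 libraries. From A to B 8 of 104 members rose (7.69%, against 4.36% of all tested loci) and 2 fell (1.92%, against 0.484%), 10 calls in all (9.62%, against 4.84%), with a median log2 fold change of 0.15 over members and 0.01 over all loci. From B to C 11 rose (10.6%, against 4.28%) and 5 fell (4.81%, against 2.36%), 16 calls in all (15.4%, against 6.63%), with medians of 0.20 and -0.02. With DESeq2 and its own scaling the second step gave 5 that rose and 5 that fell. The 2 steps share the stage B libraries, so each is described by its own values. Step calls depended on the processing: of the named genes, 1 of 8 called from A to B and 3 of 11 called from B to C were called under every alternative. The genes that rose included the terpenoid gene CYP76C3 and the wax family member CYP96A2 at both steps, and those that fell included CYP78A5 and the suberin gene CYP86B1 at both.

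CYP76C3, by the values given above, went from 0 and 2 reads at A to 66 and 679 at C, and rose by 5.11 ± 0.68 (SE, adjusted p = 0.00341) from A to B and by 3.23 ± 0.28 (adjusted p = 0.00076) from B to C. Its first step was 6.04 and not called without atcep1 stage A (adjusted p = 0.168), and 6.24 without atcep1 stage B. The second step was 2.18 without atcep1 stage B and 2.21 without atcep1 stage C. With limma on log2(RPKM + 1) the steps were 2.22 (adjusted p = 0.125) and 2.55 (0.0692), and neither was called. CYP96A2 had 1, 26 and 132 reads in WT and 1, 14 and 78 in atcep1, a rise of 4.19 ± 0.57 (adjusted p = 0.00406) and then of 2.37 ± 0.26 (adjusted p = 0.00176). Both genes were near 0 at stage A in both genotypes and highest at stage C.

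From A to B, CYP77A4 rose by 1.16 ± 0.19 (SE, adjusted p = 0.00911) and CYP705A24 by 1.32 ± 0.22 (adjusted p = 0.012; 2.01 without atcep1 stage A). CYP89A9 rose at both steps, by 0.90 ± 0.14 (adjusted p = 0.00911) and 0.92 ± 0.14 (adjusted p = 0.00551). Its step calls were not followed through the alternatives. The rise of CYP81D11, at 4.03, 9.77 and 23.7 RPKM in WT and 8.33, 20.9 and 23.6 RPKM in atcep1, was 1.35 ± 0.29 (adjusted p = 0.0355), and was lost without stage A of either genotype (adjusted p = 0.0804 and 0.0967) or without atcep1 stage B (0.166). CYP709B2, at 1.52, 2.99 and 4.55 RPKM in WT and 1.94, 7.71 and 9.41 RPKM in atcep1, rose by 1.63 ± 0.33 (adjusted p = 0.0282). It was 1.08 and not called without atcep1 stage A (adjusted p = 0.414), and not called without atcep1 stage B (0.206) or with DESeq2 (0.0763). With limma on log2(RPKM + 1) and log2(RPKM + 0.1), the calls of CYP709B2 (adjusted p = 0.109 and 0.105) and CYP81D11 (0.0884 and 0.102) were lost, and on log2(RPKM + 0.1) that of CYP705A24 (0.0534). The call of CYP77A4 was lost without WT stage B (adjusted p = 0.0567) and without atcep1 stage A (0.0672).

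From B to C, CYP86C1 rose by 3.05 ± 0.47 (SE, adjusted p = 0.00679) while its relatives fell: CYP86C3 by 2.96 ± 0.43 (adjusted p = 0.00534), CYP86C2 by 1.58 ± 0.26 (adjusted p = 0.00872) and CYP86C4 by 1.50 ± 0.24 (adjusted p = 0.00809). CYP86C3 stood at 2.97, 4.52 and 0.641 RPKM in WT and at 3.43, 3.83 and 0.371 RPKM in atcep1, so its level at C was below that at A and B in both genotypes. The fall of CYP86C2 was not called without atcep1 stage C (adjusted p = 0.0951). CYP86A2 rose by 1.13 ± 0.26 (adjusted p = 0.0377), a call lost without any 1 of the atcep1 libraries (adjusted p = 0.0525, 0.47 and 0.149). CYP79B2 rose by 0.95 ± 0.17 (adjusted p = 0.0114), lost without atcep1 stage B (0.0518). CYP94B3 rose by 2.61 ± 0.44 (adjusted p = 0.00965); it was 1.58 and not called without atcep1 stage B (adjusted p = 0.577), and 1.46 and not called without atcep1 stage C (0.334). DESeq2 did not call the rises of CYP86A2 (adjusted p = 0.267) and CYP94B3 (0.0648). With limma on log2(RPKM + 0.1) the calls of CYP86A2, CYP79B2, CYP94B3, CYP86C1, CYP86C2 and CYP86C4 were lost (adjusted p = 0.0566 to 0.162), and with log2(RPKM + 1) those of CYP86A2, CYP79B2, CYP94B3 and CYP86C2 (0.05 to 0.136).

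CYP78A5 and CYP86B1, which fell at both steps, were highest at stage A in both genotypes. CYP78A5 went from 596 and 293 reads at A to 45 and 46 at C, falling by 1.08 ± 0.22 (SE, adjusted p = 0.0256) and then by 2.13 ± 0.27 (adjusted p = 0.0032). Its first step was -0.59 and not called without WT stage A (adjusted p = 0.281), and not called without WT stage B (0.0593) or with limma on log2(RPKM + 1) and log2(RPKM + 0.1) (0.0859 and 0.104). CYP86B1, which makes very long chain hydroxy acids of suberin, had 47, 16 and 1 reads in WT and 51, 20 and 4 in atcep1. It fell by 1.40 ± 0.32 (adjusted p = 0.0454) and by 2.81 ± 0.55 (adjusted p = 0.0194). The first of these calls was lost without any 1 of the 4 libraries of A and B (adjusted p = 0.172 to 0.312), with DESeq2 (0.36) and with limma on log2(RPKM + 1) and log2(RPKM + 0.1) (0.0512 and 0.206). The second was -2.20 and not called without WT stage C (adjusted p = 0.059), and -3.97 without atcep1 stage C (0.0106).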

How the data were processed

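The 6 deposited tables list, per the file headers, transcript models with unique read counts and RPKM; models not listed were set to 0. The deposited read counts are whole numbers that sum to the total in each header, and the deposited RPKM is the authors' count scaled to length and library total. Per the submitters' processing notes the genome build was TAIR10. Which aligner and counter were used is not given in the sources used here. Per the labels' protocols, oligo(dT)-selected RNA was copied from random hexamers with no step that marks strand, so antisense reads cannot be told apart. Of the columns, coverage was not used.

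Counts and RPKM were summed over models to 25964 loci. In R 4.3.3, edgeR 4.0.16 (filterByExpr with a minimum count of 10, TMM factors, quasi-likelihood F test, Benjamini-Hochberg over 16114 loci, adjusted p below 0.05) was fitted to all 6 libraries with stage and genotype as additive terms; SE is the log2 fold change over the square root of F. The fit was run on simulated counts with a fixed dispersion and the same genotype fold at every stage. That run cannot show how often calls err where a difference varies with stage. Within stages a pseudocount of 1 and a minimum of 5 RPKM in the higher library were used. Alternatives were DESeq2 1.42.0, limma 3.58.1 (trend) on log2 RPKM with a pseudocount of 1 or 0.1, no TMM factors, no filter, 1 model per locus, no stage term, each stage or library left out, and other pseudocounts, minima and centring within stages. An alternative without members that share over 20% of 49-base stretches was chosen after seeing the data.

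Members, role lists, markers and tests were chosen with earlier results of these data known. Named genes are the 10 largest rises and falls by genotype, the 5 largest and smallest ratios per stage, the 6 largest rises and falls per step, the 10 highest levels, and for each role list up to 4 called members and the highest one; other genes were named after their values were seen. A call was followed through the alternatives only where the rule for that comparison named the gene. The genotype calls of CYP86A2, CYP86C4, CYP96A15 and CYP72A8 were not followed. Symbols come from the files, with the reference annotation (TAIR10.1) used where they lack or repeat one. File coordinates overlap the reference gene for all 207 members. Coding identity was computed with Biopython 1.88 from aligned coding sequences.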

Additional observations from a re-analysis of the deposited data

How the results depend on the processing

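The 44 calls between genotypes (40 higher, 4 lower) became 28 with DESeq2 (26 and 2), all 28 of them among the 44, and 8 without the stage block (8 and 0). Leaving out a stage gave 32 to 44 calls, and the other alternatives gave 35 to 50. The labels give no replicate numbers; the main fit pairs the 2 libraries of each stage through the stage block. The 10 calls from A to B became 4 with limma on log2(RPKM + 1) and 5 on log2(RPKM + 0.1); leaving out a library gave 7 to 24, with 22 without WT stage C and 24 without atcep1 stage C. The 16 calls from B to C became 10 with DESeq2 (5 rises, 5 falls), 8 with limma on log2(RPKM + 1) and 5 on log2(RPKM + 0.1); leaving out a library gave 12 to 24. The causes were not tested. Total counts within stages stayed within 1.5 times under every alternative run, but the few lower ones did not: they went from 1 to between 0 and 2 at stage A and from 2 to 1 at B (centred) and C (at least 10 RPKM, or centred). Centring stage C on its median of -0.11 gave 24 higher and 1 lower. Without members that share stretches the calls were 41, 9 and 16. No called value of a named gene changed sign. Of genes not called, CYP735A2 was -0.043 with limma on log2(RPKM + 0.1) and -0.092 without stage A, and CYP707A4 was 0.36 without stage B. Of the 26 named genes called between genotypes, 18 were called under every alternative except that without the stage block; for the steps these were 1 of 8 from A to B and 3 of 11 from B to C. The 103 members that were not tested had too few reads to pass the filter on low counts. Whether depth, a low level or reads missing from unique counts kept them out was not tested.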

Other observations

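Among members with too few reads to be tested, several were highest in atcep1 stage C; they were chosen after their values were seen. CYP77A7, the tandem neighbour of the petal cutin gene CYP77A6, stood at 0, 0.538 and 0.520 RPKM in WT stages A, B and C and at 0.133, 0.133 and 3.38 RPKM in atcep1. CYP716A1, of a family that oxidises triterpenes, stood at 0, 0.170 and 1.48 RPKM in WT and at 0, 0.168 and 3.16 RPKM in atcep1. CYP715A1 stood at 0.159, 0.469 and 0.755 RPKM in WT and at 0, 0.924 and 3.63 RPKM in atcep1, and CYP71B38 at 0, 0 and 0.785 RPKM in WT and at 0.161, 0.160 and 4.53 RPKM in atcep1.

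P450s outside the membership rule gave the following values. CYP73A5, the cinnamate hydroxylase that opens the phenylpropanoid pathway, rose in atcep1 by 0.34 ± 0.11 (SE, edgeR adjusted p = 0.0491), from 183, 160 and 116 RPKM in WT to 204, 185 and 164 RPKM. CYP84A1, the ferulate hydroxylase of lignin synthesis, rose by 0.68 ± 0.19 (adjusted p = 0.0298), from 19.1, 13.9 and 12.9 RPKM to 21.7, 20.3 and 28.8 RPKM. CYP74B2, hydroperoxide lyase, did not pass (0.04 ± 0.10, adjusted p = 0.782). The P450 reductase genes ATR1 and ATR2, which pass electrons to P450 monooxygenases, had 3 to 20 reads per library and were not tested. Whether reads are missing from their unique counts was not tested either.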
